A study of Mus musculus with 4 samples.

Results

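The genes described here lie in the proximal part of mouse chromosome 15, within chr15:3220767-38230462 of the mm9 build. The interval had been marked out because expression there was lower in the Ara-C resistant leukaemia line B117H than in its parent B117P. Of 128 genes listed wholly inside it, 66 had an FPKM of at least 1 on average across the 4 libraries, and 61 remained after Rrm2b and genes named Rpl, Slc or Zfp were set aside. No small RNA gene of the interval reached the minimum. The files list 21889 genes in all, of which 10066 reached it and are called expressed genes. FPKM counts sequenced fragments relative to transcript length and to the number of fragments mapped in the library. Ratios between lines were formed on log2(FPKM + 1), so they understate the change of genes with a low level.

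The libraries came from 4 acute myeloid leukaemia lines of mouse strain BXH-2, an inbred strain prone to retrovirus-induced myeloid leukaemia, with 1 library per line. B117P and B140P are parental and sensitive to Ara-C (cytarabine), with IC50 values near 150 and 110 ng/ml in the labels. B117H and B140H, which the series describes as derived from them and highly resistant, have IC50 values near 160 and 60 µg/ml. The protocols give the same text for all 4 lines, namely exposure to rising Ara-C and passage in medium free of the drug, so what the parental lines received cannot be read from the labels, nor whether a resistant line is a single clone. With 1 library per line no difference between lines has a replicate error or a test. Differences are given by size, with a call at 1.5-fold or 2-fold and the share of all expressed genes past the same fold. B117H against B117P is the comparison that chose the interval, so its values are a description, and B140H against B140P is the contrast that played no part in the choice.

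Estimated depth ran from 19220000 fragments in B140P to 24500000 in B140H, from the spacing of low FPKM values. In every library except B117H the spacing fitted a doubled total about as well, so the smaller totals were used. A transcript of 2 kb with 3 fragments would then have 0.0612 to 0.0780 FPKM. All 8 listed myeloid markers were expressed, with summed FPKM of 1641, 666, 202 and 131 in B117P, B117H, B140P and B140H, although Kit was listed at 0 in both B140 lines. Mpo made up most of the sum in B117P and B117H, at 1450 and 473 FPKM, and Cd33 most of it in B140P, at 120 FPKM. Ptprc, Itgam, Kit and Cd33 were higher in B117H than in B117P, and Cebpa, Csf1r, Fcgr3 and Mpo were lower. The 3 T cell markers summed to at most 0.133 FPKM in any library and Cd3e and Cd3g were at 0 in all 4. The 3 B cell markers summed to 0.3996, 0.0658, 6.63 and 16.1 FPKM, 3 erythroid markers to between 1.40 and 3.74 FPKM, and 4 stromal or endothelial markers to between 7.999 and 30.8 FPKM, nearly all from Pecam1. The part of these markers in the results was not tested. In bulk RNA, fewer cells with a transcript and less of it per cell cannot be told apart.

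The members were grouped by place on the chromosome and not by function. They include subunits of large assemblies that every cell uses, such as the chaperonin subunit gene Cct5 and the cohesin loader gene Nipbl, and genes used mainly in some blood cells, such as Il7r, a cytokine receptor gene of lymphoid progenitors. Neighbouring genes of unlike function are usually controlled each by its own promoter and enhancers, and the number of copies of a chromosome segment acts on all of its genes together. DNA was not measured in these files, so copy number was not tested.

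Of the 61 members, 40 were lower in B117H than in B117P by at least 1.5-fold and 36 by at least 2-fold, and 1 was higher. Among all expressed genes 9.16% were lower by 1.5-fold, 3.21% by 2-fold and 4.66% were higher by 1.5-fold. Because the interval was chosen on these values, the counts show only what the choice fixed. The median log2 ratio of the members was -1.23, against -0.03 over all expressed genes. In the other lineage 2 members were lower in B140H than in B140P by 1.5-fold, 1 was higher and 58 lay between, with a median log2 ratio of -0.01. The background there was 4.68% lower and 8.39% higher, and a median of 0.11 over all expressed genes. The members, low in B117H against its parent, therefore had no shared shift in B140H at this fold.

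**Figure D1:**
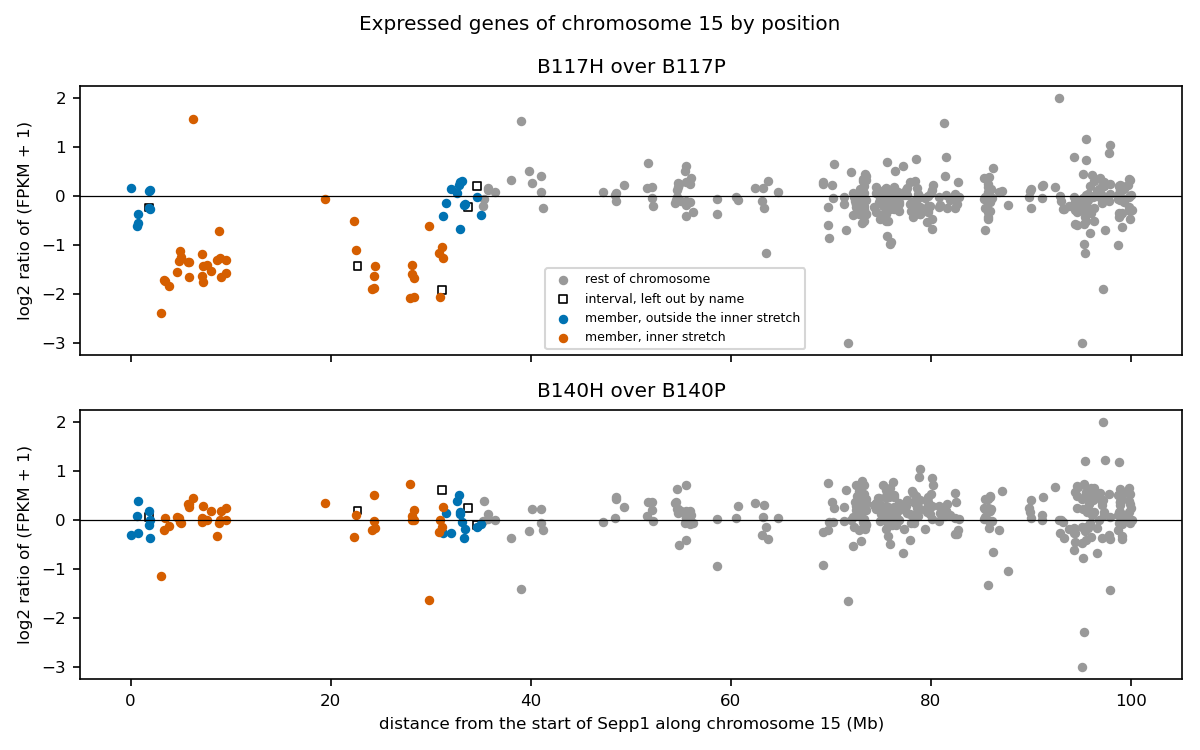
Log2 ratio of (FPKM + 1) for each expressed gene of chromosome 15 against its distance in Mb from the start of Sepp1, with B117H over B117P above and B140H over B140P below. Orange points are members from Dab2 to Hrsp12, blue points the other members, open squares expressed genes of the interval left out by name and grey points the rest of the chromosome. The orange points sit near -1.42 in the upper panel and near 0 in the lower one. Ratios past the axis (3 genes above, 2 below) are drawn at its edge.

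The low values did not fill the interval. The outermost members past 2-fold were Dab2 and Hrsp12, which bound a stretch of 28.2 Mb with 41 members. The bounds of this inner stretch were set after the values were seen, so the step at each bound is in part made by that rule. Its median log2 ratio in lineage B117 was -1.42, with quartiles of -1.66 and -1.23, and 38 of the 41 members were lower by at least 1.5-fold. The 8 members before it, from Sepp1 to Ptger4, had a median of -0.25, and the 12 after it, from Pop1 to Klf10, a median of -0.07. Past the interval the 334 expressed genes of the rest of chromosome 15 had a median of -0.06, with 18 of them lower by 1.5-fold.

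The plot of ratios by position shows the same level on both sides of a gene desert. Between Drosha and Gm5803 lay 9.78 Mb with 5 listed genes, none with a mean FPKM above 0.0142. The 24 members before this gap had a median log2 ratio of -1.41 and the 17 after it a median of -1.42. Above the minimum level the median differed little: the 20 inner members with the lower mean FPKM had a median of -1.42 and the 21 with the higher mean FPKM one of -1.41. Of these, 17 of the 20 and all 21 were lower by 1.5-fold. Below it, the 8 inner genes with a mean FPKM from 0.1 to below 1 had a median of -0.26, and 1 was lower by 1.5-fold. The 1 added to FPKM shrinks ratios at this level. Capsl, at 0.213 FPKM in B117P and 0 in B117H, had a log2 ratio of only -0.28. These genes therefore cannot be set against the members by this ratio. Over all expressed genes the quartiles were -0.25 and 0.18.

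The proximal bound of the stretch is loose and the distal bound is tight. Ptger4, a prostaglandin E2 receptor gene, was at 3.46 FPKM in B117P, 3.85 in B117H, 2.59 in B140P and 1.77 in B140H. Dab2, an endocytic clathrin adaptor gene and the next member, was at 68.7, 12.3, 13.8 and 5.72 FPKM in the same order. These neighbours are 1056 kb apart, and Dab2 alone of the pair was high in B117P. At the other end Hrsp12, which encodes a deaminase of reactive imine metabolites, was at 31.9, 12.8, 20.9 and 25.4 FPKM. Pop1, a protein subunit gene of RNase P and RNase MRP, starts 64 bases further on and was at 17.1, 12.7, 11.9 and 9.81 FPKM. Their log2 ratios in lineage B117 were -1.25 and -0.40, and Pop1 was the highest in B117P as well, by 0.40 on the log2 scale over the next library.

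Read across all 4 libraries, the inner stretch was high in B117P more than low in B117H. B117P had the highest level of the 4 libraries in 38 of the 41 inner members, against 21.9% of all expressed genes, and in 35 it was at least 1.5-fold above each of the other libraries, against 3.43% of all expressed genes. B117H was at least 1.5-fold below each of the other libraries in 3 inner members, Dnajc21, Fam173b and Hrsp12, against 3.34% of expressed genes. Set side by side, the inner members had a median log2 difference of 1.33 between B117P and B140P, a 2.52-fold higher level, where all expressed genes had 0.00. Between B117H and B140H their median was -0.15, and so was that of all expressed genes. The name of the interval holds for B117H against its parent only. For 25 of the 41 inner members B117H was within 1.5-fold of B140H, as it was for 6351 of the 10066 expressed genes. B117P entered the choice of the interval, so these differences are a description too, and whether the authors scaled the lineages together is not given in the sources used here.

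**Figure D2:**
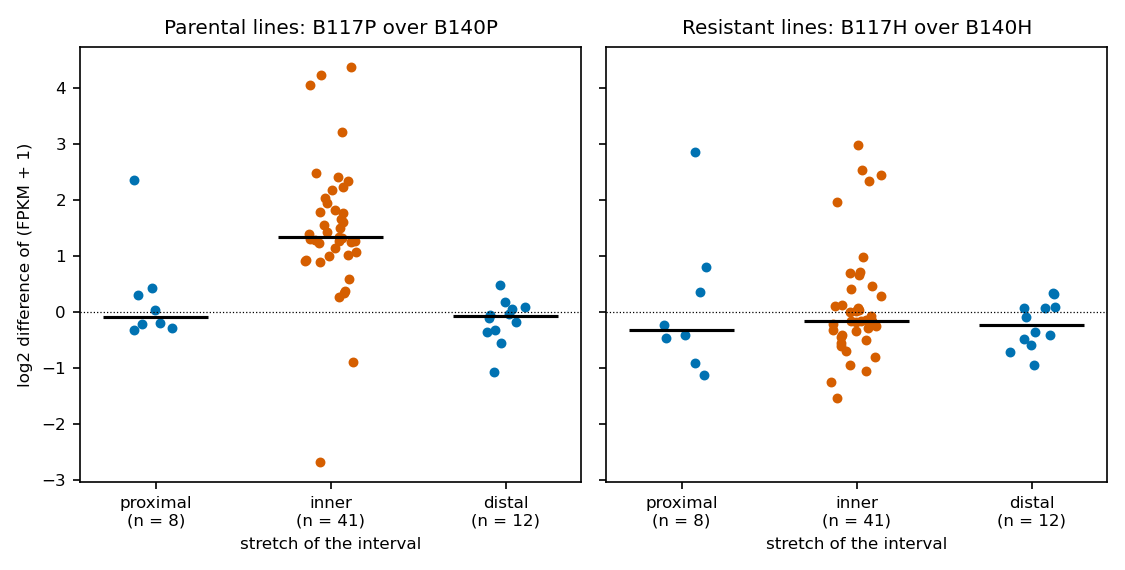
Log2 difference of (FPKM + 1) between lineages for each member, for the parental lines on the left and the resistant lines on the right, by stretch of the interval. Points are members, jittered sideways, and bars are medians. The inner stretch has its median at 1.33 on the left and at -0.15 on the right, and the proximal and distal stretches have medians between -0.31 and -0.08.

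By count, 35 inner members were at least 1.5-fold higher in B117P than in B140P and 2 were lower, against 19.2% and 14% of all expressed genes. In the resistant lines 9 inner members were higher in B117H than in B140H and 7 were lower, against 15% and 21.9%. None of the 12 distal members was higher in B117P than in B140P by this fold, and of the 8 proximal members only Sepp1 was. Sepp1, which encodes the selenium carrier selenoprotein P, was at 34.4, 38.9, 5.89 and 4.54 FPKM in B117P, B117H, B140P and B140H. It was high in both lines of lineage B117, unlike most inner members. The 9 inner members higher in B117H than in B140H, Fyb and Rai14 among them, shared this pattern.

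**Figure D3:**
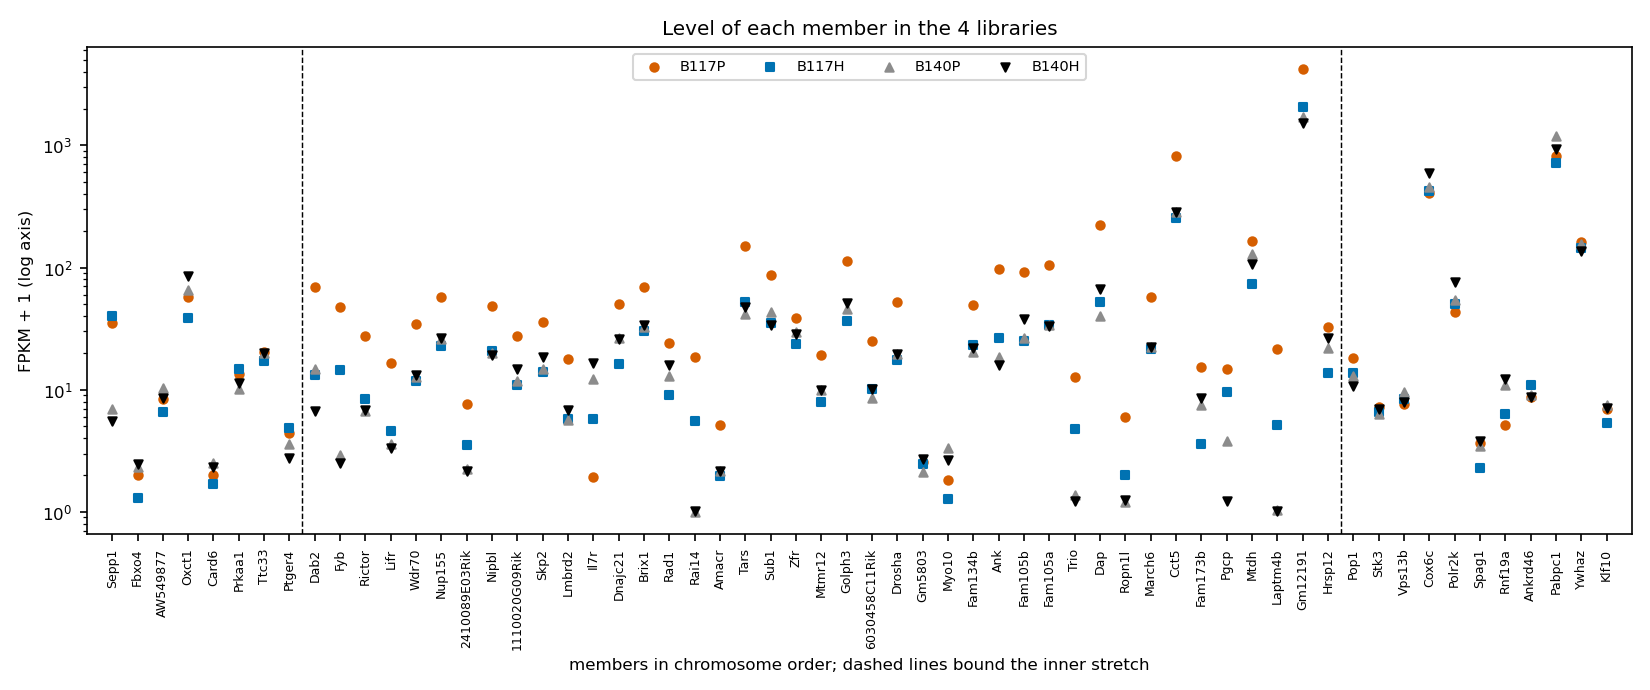
FPKM + 1 on a log axis for 60 of the 61 members in chromosome order in the 4 libraries, with dashed lines at the bounds of the inner stretch. Between the dashed lines the B117P points lie above the other 3 libraries for 38 of 41 members, and Il7r, Gm5803 and Myo10 are the exceptions. Outside the lines the 4 libraries overlap for most members.

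From here on, where 4 FPKM values are given in a row they are for B117P, B117H, B140P and B140H, in that order. Genes of RNA processing and translation differed by stretch. The 5 inner members of this group were all lower by at least 1.5-fold in B117H. Drosha, the nuclease that releases microRNA hairpins from primary transcripts, was at 50.8 FPKM in B117P, 16.5 in B117H, 18.7 in B140P and 18.6 in B140H. Tars, threonyl-tRNA synthetase, was at 148, 50.8, 40.9 and 46.3 FPKM. Both were high in B117P and alike in the other libraries. Brix1 and Dnajc21, which act in assembly of the large ribosomal subunit, had log2 ratios of -1.19 and -1.63. Zfr, a zinc finger RNA-binding protein gene whose span overlaps another listed gene, was the least changed of these 5, at 37.6, 22.7, 28.8 and 27.7 FPKM. The distal Pabpc1, the main cytoplasmic poly(A)-binding protein gene, was at 817, 722, 1197 and 925 FPKM, highest in B140P.

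Among members with a promoter window, nearby start sites make 3 pairs in the stretch, whose genes run away from each other. The bases between such starts are shown, and both genes of each pair moved by a like amount in lineage B117. Most inner members did so, with quartiles of -1.66 and -1.23, so this is not particular to the pairs. Hrsp12 and Pop1, not shown, are 64 bases apart and had unlike ratios of -1.25 and -0.40. Sequences are from RefSeq on build GRCm38.p6, where 40 of the 61 members have a promoter window. They are written on the plus strand, with capitals for the letters of a GC box (GGGCGG, bound by Sp1-type factors) or a CCAAT box (CCAAT, bound by NF-Y), each sought on both strands. Brix1 and Rad1 lie on either side of chr15:10485938-10486017, Skp2 and Lmbrd2 of chr15:9140455-9140527, and 6030458C11Rik and Drosha of chr15:12824680-12824803.
Brix1 and Rad1: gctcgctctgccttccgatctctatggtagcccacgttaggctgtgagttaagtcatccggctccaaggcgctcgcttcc
Skp2 and Lmbrd2: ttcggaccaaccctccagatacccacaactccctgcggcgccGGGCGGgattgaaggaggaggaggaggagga
6030458C11Rik and Drosha: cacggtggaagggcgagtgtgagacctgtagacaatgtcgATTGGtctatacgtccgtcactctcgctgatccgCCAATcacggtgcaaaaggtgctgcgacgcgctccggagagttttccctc

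The Brix1 and Rad1 stretch of 80 bases holds neither motif, that of Skp2 and Lmbrd2 holds 1 GC box, and that of 6030458C11Rik and Drosha 2 CCAAT boxes. The log2 ratios in lineage B117 were -1.19 and -1.43 for the Brix1 and Rad1 pair, -1.35 and -1.65 for Skp2 and Lmbrd2, and -1.31 and -1.57 for 6030458C11Rik and Drosha. In windows of 300 bases, from 250 before to 50 after a start, 21 of 33 inner members with a window held a GC box, 63.6%, against 66.6% of 8053 expressed genes and 35.9% of all 27025 genes in the table. A CCAAT box stood in 13 of the 33, 39.4%, against 39.7% of expressed genes and 37.9% of all genes. An ETS core (CCGGAAG) stood in 21.2% of inner members and of expressed genes alike. A TATA box (TATAAA) stood in 1 of the 33, 3.03%, against 6.31% of expressed genes, and an E-box (CACGTG) in 2 of the 33, 6.06%, against 11% of expressed genes. These last counts are too small to compare.

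Both members that act in DNA damage signalling or the nuclear pore were lower by 2-fold in B117H. Rad1, a ring subunit gene of the 9-1-1 checkpoint clamp that is loaded at damaged DNA, was at 23.3, 8.02, 11.99 and 14.8 FPKM. Nup155, a scaffold gene of the nuclear pore, was at 56.2, 22.0, 24.9 and 25.7 FPKM. Among 6 transcription and chromatin genes, the inner 4 were lower by 2-fold. Nipbl was at 47.4, 19.6, 19.1 and 18.1 FPKM, high in B117P alone. Sub1, the transcriptional coactivator PC4, was at 85.4, 33.99, 42.2 and 33.1 FPKM. Wdr70, a WD repeat protein gene, and Mtdh, a gene of a membrane and nuclear protein also known as AEG-1, had log2 ratios of -1.54 and -1.15. The distal Polr2k, a small subunit gene shared by the RNA polymerases, and Klf10, a zinc finger repressor gene induced by TGF-beta, were at 42.2, 49.5, 52.8 and 75.2 FPKM and at 5.92, 4.30, 6.45 and 6.01 FPKM. Neither was high in B117P.

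Of 8 ubiquitin and protein folding genes, 6 were lower in B117H by 1.5-fold. All 4 inner members were lower by 2-fold. Cct5, at 811, 255, 284 and 285 FPKM, had the highest B117P level per length among inner members apart from Gm12191. Skp2, the F-box protein gene that directs degradation of the cell cycle inhibitor p27, was at 34.6, 13.0, 13.7 and 17.5 FPKM. Fam105b, current symbol Otulin, which encodes a deubiquitinase for linear chains, was at 90.6, 24.0, 25.5 and 36.7 FPKM. Its neighbour and relative Fam105a was at 103, 32.8, 33.1 and 32.4 FPKM. March6, a ubiquitin ligase gene of the endoplasmic reticulum, had a log2 ratio of -1.41. All of these were highest in B117P, and Fam105b was also higher in B140H than in B117H by 1.5-fold.

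The 4 ubiquitin and folding genes outside the inner stretch gave a mixed picture. Rnf19a, a ubiquitin ligase gene, was at 4.15, 5.33, 9.82 and 11.1 FPKM, lower in both B117 lines. Fbxo4 and Spag1 were the only members outside the stretch lower by 1.5-fold in B117H. Fbxo4 was at 1.01, 0.309, 1.32 and 1.46 FPKM and Spag1 at 2.66, 1.29, 2.45 and 2.77 FPKM, both lowest in B117H. For Fbxo4 the share of the parental level was 30.6% with a 95% interval of 8.24% to 112%. A difference was thus not detectable with the smaller depth totals and a transcript of 583 bases. A larger total or a longer transcript would narrow the interval. Here and below such intervals are exact Clopper-Pearson intervals on estimated fragments and cover counting error only.

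Kinase, adaptor and cytoskeleton genes held several of the lowest ratios, and some of them were scarcely expressed in lineage B140. Dab2 had a log2 ratio of -2.39, the lowest of all 61 members, and kept 17.9% of the parental FPKM (95% interval 15.9% to 20.1%). It was also lower in B140H than in B140P, with a log2 ratio of -1.14. Rictor, the defining subunit gene of mTOR complex 2, was at 26.5, 7.32, 5.69 and 5.84 FPKM, high in B117P alone. Fyb, an adaptor gene of T cells and myeloid cells, was at 46.8, 13.5, 1.90 and 1.5 FPKM. Trio was at 11.6, 3.72, 0.363 and 0.216 FPKM. Rai14, an actin-associated ankyrin repeat gene that overlaps another listed gene, was at 17.7 and 4.52 FPKM and listed at 0 in B140P and at 0.00835 FPKM in B140H. For Fyb, Trio and Rai14 both lines of lineage B117 were thus above both lines of lineage B140.

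Dap, death-associated protein, moved in opposite directions in the lineages. It was at 221 FPKM in B117P and 51.4 in B117H, and at 38.8 FPKM in B140P and 65.4 in B140H. Its log2 ratios were -2.09 and 0.74. Proximal and distal members of the group changed little in lineage B117. Prkaa1, the alpha1 catalytic subunit gene of AMP-activated protein kinase, was at 12.5, 13.6, 9.06 and 10.4 FPKM, and Ywhaz, 14-3-3 zeta, at 161, 143, 154 and 136 FPKM. Stk3, a Hippo pathway kinase gene also known as MST2, was at 6.17, 5.52, 5.31 and 5.91 FPKM. B117P was the highest of the 4 for Ywhaz and Stk3, by a small margin, and B117H for Prkaa1.

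Dab2, with the lowest ratio, and Il7r, the sole member higher by 1.5-fold in B117H, went apart in the same stretch. The 250 bases before their annotated starts are shown for this reason, each on its own gene's strand, from RefSeq on GRCm38.p6. Dab2 is at chr15:6299539-6299788 on the plus strand and Il7r at chr15:9529877-9530126 on the minus strand. Capitals mark a GC box or a CCAAT box.
Dab2: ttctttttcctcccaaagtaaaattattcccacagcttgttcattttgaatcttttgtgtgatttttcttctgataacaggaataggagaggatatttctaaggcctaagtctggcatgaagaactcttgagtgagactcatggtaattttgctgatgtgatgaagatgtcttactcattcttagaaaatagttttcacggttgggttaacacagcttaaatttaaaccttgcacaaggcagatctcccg
Il7r: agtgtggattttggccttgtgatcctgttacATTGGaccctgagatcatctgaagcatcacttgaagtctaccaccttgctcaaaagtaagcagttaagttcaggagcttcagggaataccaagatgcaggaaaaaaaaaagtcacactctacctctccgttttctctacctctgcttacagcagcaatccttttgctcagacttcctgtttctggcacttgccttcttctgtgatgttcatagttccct

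Neither window holds a GC box, and that of Il7r holds 1 CCAAT box. G and C make up 36.8% of the Dab2 window and 44% of the Il7r window. No match says only that these letters are not in this window.

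Receptor genes did not share a direction. Il7r was at 0.917 FPKM in B117P, 4.75 in B117H, 11.2 in B140P and 15.5 in B140H. B117P was thus its lowest library, and B117H had 518% of the parental FPKM (95% interval 384% to 721%). Lifr, the leukaemia inhibitory factor receptor gene, was at 15.4, 3.62, 2.61 and 2.33 FPKM, with its highest level in B117P. Ptger4, given above, lies outside the stretch and had a log2 ratio of 0.12.

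Membrane traffic and transport genes had a median log2 ratio of -1.65 over the 6 inner members, all lower by 2-fold. Laptm4b, a lysosomal membrane protein gene, was at 20.4, 4.16, 0.0286 and 0.0224 FPKM, so in both B140 lines it was below the level of 3 fragments on a 2 kb transcript. Ank, which exports pyrophosphate and nucleotides from the cell, was at 96.4, 25.3, 17.3 and 14.96 FPKM. Golph3, a Golgi protein gene that binds phosphatidylinositol 4-phosphate, was at 113, 35.3, 44.3 and 50.4 FPKM. Lmbrd2, Mtmr12 and Fam134b, the last an ER-phagy receptor gene, had log2 ratios of -1.65, -1.27 and -1.11. All 6 were highest in B117P. The distal Vps13b, a lipid transfer protein gene of the Golgi whose span overlaps another listed gene, was at 6.56, 7.43, 8.63 and 6.98 FPKM.

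Mitochondrial and metabolic genes were lower in the inner stretch and level at Cox6c. Fam173b, which methylates a lysine of the ATP synthase c subunit, was at 14.2, 2.62, 6.45 and 7.61 FPKM. It kept 18.5% of the parental level (95% interval 15.2% to 22.4%) and was lower in B117H than in every other library. Amacr, a racemase of branched-chain fatty acid breakdown, was at 4.16, 0.956, 1.18 and 1.18 FPKM. Pgcp, a secreted carboxypeptidase gene whose span overlaps another listed gene, was at 13.6, 8.61, 2.81 and 0.221 FPKM and was lower in both resistant lines, with log2 ratios of -0.61 and -1.64. Cox6c, a nuclear subunit gene of cytochrome c oxidase in the distal stretch, was at 405, 424, 455 and 591 FPKM. Oxct1, a ketone body enzyme gene in the proximal stretch whose span also overlaps another gene, was at 55.9, 37.8, 63.9 and 83.4 FPKM, so B117H was its lowest library.

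Of the inner members in no functional group, 6 of 7 were lower by 2-fold. They were 6030458C11Rik, 1110020G09Rik, 2410089E03Rik, Fam105a, Ropn1l and Gm12191, with log2 ratios between -1.63 and -1.04. Gm12191 was at 4206, 2043, 1704 and 1532 FPKM and has the same listed span as the ribosomal protein gene Rpl30, so how reads were divided between them is uncertain. Gm5803, a predicted gene with the current symbol Hnrnpa1l2-ps2, was at 1.55, 1.45, 1.12 and 1.71 FPKM and changed least in the stretch. Myo10, an unconventional myosin gene, was at 0.812, 0.275, 2.36 and 1.64 FPKM, and was lowest in the B117 lines. Gm5803, Myo10 and Il7r were the inner members not lower by 1.5-fold, and all had under 2 FPKM in B117P.

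Of the 40 inner members with a transcript length, 37 had a 95% interval for the share of the parental level wholly below 100%, against 30.3% of 9926 expressed genes with a length. The inner stretch was bounded on these same values, so the count describes the choice and the 30.3% is no test of it. The median share left in B117H was 33.9% over the inner stretch, and the 36 members past 2-fold kept between 17.9% and 48.6%. In lineage B140 the median share of the same inner stretch was 100.2%. Outside the inner stretch 8 of 20 members had an interval below 100% in B117H and 5 had an interval above it, against 23.8% of expressed genes above. An interval that covers counting error only is thus passed by many genes.

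Many members encode subunits of assemblies whose other subunits are encoded outside the interval, which allowed each to be set against its partners within the same libraries. For 16 of 18 listed complexes or pathways the named gene was a member, and 91 expressed partners lay outside the interval. Over the 9 complexes with an inner member, the member's log2 ratio in lineage B117 minus the median of its partners had a median of -1.39, and 8 of the 9 members were below all of their partners. The interval and its inner stretch were chosen on this same ratio and the partners were not. Such a gap was therefore largely set by the choice and is a description only. None of the 43 partners of these complexes was lower by 1.5-fold and 1 was higher, Prr5 of mTOR complex 2, with 1.83 FPKM in B117H and a listed value of 0 in its parent, named here after its value was seen. Over the 7 complexes with a proximal or distal member the median difference was -0.03, between -0.30 and 0.46. In lineage B140 the corresponding medians were -0.04 and -0.05.

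The CCT chaperonin, a ring of 8 different subunits that folds actin and tubulin, is an example in FPKM. Cct5 was at 811 FPKM in B117P, while Tcp1 was at 213, Cct2 at 233 and Cct3 at 199 FPKM in that line. In B117H the same 4 genes were at 255, 223, 241 and 203 FPKM. In B140P they were at 284, 257, 268 and 249 FPKM, and in B140H at 285, 271, 270 and 264 FPKM. Over all 7 partners the FPKM ran from 101 to 276 in B117P, from 139 to 241 in B117H, from 160 to 268 in B140P and from 159 to 271 in B140H. Cct5 was above all 7 per length in each library, by the widest margin in B117P. The log2 ratio of Cct5 was 1.73 below the median of its 7 partners.

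Other assemblies gave like differences. Rictor had a log2 ratio of -1.72 while its mTOR complex 2 partners Mtor, Mlst8 and Mapkap1 had ratios of -0.14, 0.03 and 0.12. Nipbl was at -1.23 while its partner in cohesin loading, Mau2, was at 0.00, and the cohesin subunits Smc1a and Smc3 at 0.02 and -0.19. Rad21, a cohesin subunit gene on chromosome 15 beyond the interval, was at 0.06. Drosha was at -1.57, with Dgcr8, Ddx5 and Ddx17 of the microprocessor at -0.34, 0.27 and -0.18. Rad1 was at -1.43, with Rad9, Hus1 and the clamp loader gene Rad17 at 0.18, -0.03 and 0.04. Nup155 was at -1.32, with Nup93, Nup188 and Nup205 of the nuclear pore at -0.04, -0.01 and 0.22. Skp2 was at -1.35, with Cks1b, Skp1a and Cul1 of the same ubiquitin ligase at -0.17, 0.13 and 0.18. Fam105b was at -1.88, and Rnf31, Rbck1 and Sharpin, which build linear ubiquitin chains, were at -0.11, -0.30 and -0.23. Il7r went the other way, at 1.58 against 0.06 for Il2rg, 0.21 for Jak1 and 0.16 for Jak3.

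**Figure D4:**
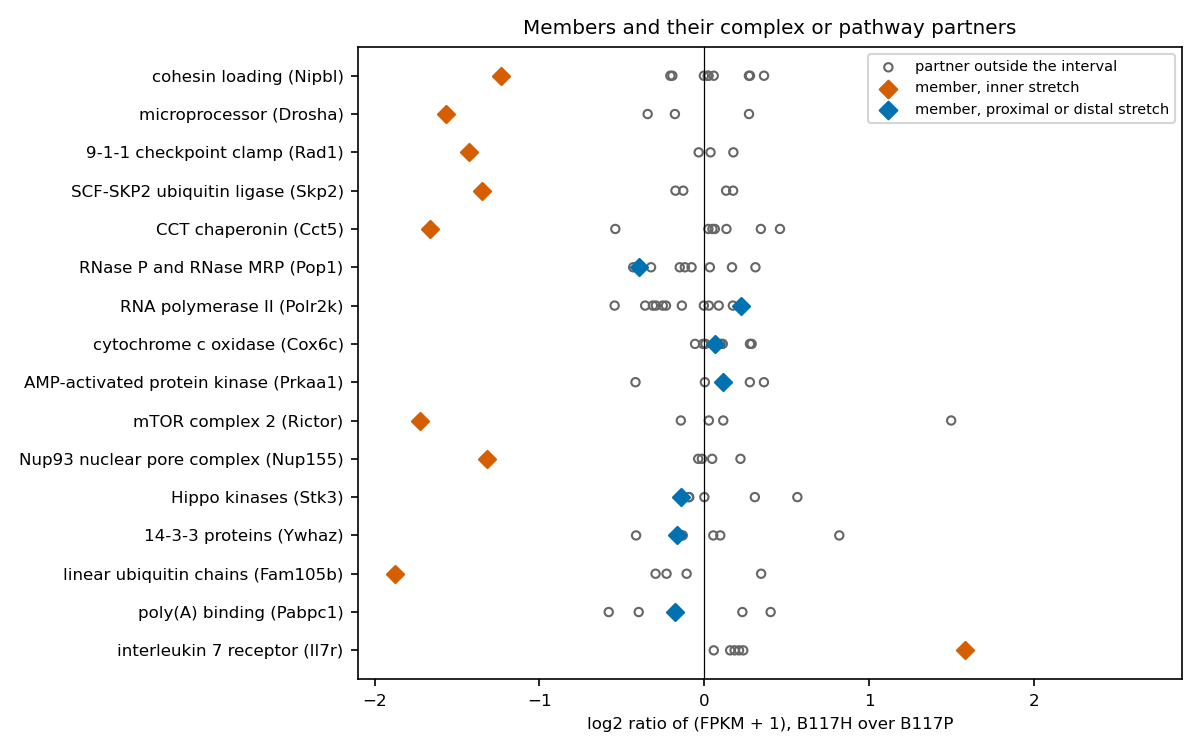
Log2 ratio of (FPKM + 1), B117H over B117P, for each member in a listed complex or pathway (filled diamonds) and its expressed partners outside the interval (open circles). Orange diamonds are members of the inner stretch and blue ones proximal or distal members. Of the 9 orange diamonds 8 lie left of all their partners, and Il7r lies right of its partners. The inner stretch was chosen on the ratio plotted and the partners were not.

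At the interval's edges 1 of the members named here, Fbxo4, was lower by 1.5-fold. Sepp1, Fbxo4 and AW549877 at the proximal edge had log2 ratios of 0.17, -0.62 and -0.37, and no expressed gene lay nearer the start of the chromosome. Ywhaz and Klf10 at the distal edge were at -0.17 and -0.39. AW549877 was at 7.41, 5.51, 9.27 and 7.59 FPKM, highest in B140P. Beyond the distal edge Azin1 was at 39.5, 34.1, 23.2 and 22.7 FPKM, Atp6v1c1 at 31.1, 29.6, 32.2 and 42.5 FPKM and Slc25a32 at 4.26, 4.74, 8.58 and 8.66 FPKM. Their log2 ratios were -0.21, -0.07 and 0.13, so none passed 1.5-fold in lineage B117. The proximal members Card6 and Ttc33 had ratios of -0.25 and -0.26. The distal members Rnf19a and Ankrd46 had ratios of 0.30 and 0.32, the highest after Il7r. Ankrd46 was at 7.75, 9.90, 7.96 and 7.68 FPKM, highest in B117H. The outer bounds of the interval lie beyond the outermost members lower by 2-fold.

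Chromosomes 13 and 16 also had low medians in B117H. These are taken over whole chromosomes, so their size cannot be set against that of a stretch bounded on its low values. Over 384 expressed genes of chromosome 13 the median log2 ratio was -0.44, with quartiles of -0.87 and 0.11, and over 328 of chromosome 16 it was -0.47, with quartiles of -0.66 and -0.27. On chromosome 16 the median of B117P over B140P was 0.41 and that of B117H over B140H was -0.26. On chromosome 13 these were -0.06 and -0.45, so there it was B117H and not B117P whose median stood away from the B140 line. No test compares these chromosomes with chromosome 15.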

How the data were processed

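Gene-level FPKM values were taken as the authors deposited them, per the file headers, for 4 libraries. TopHat2 2.0.4 and Cuffdiff with the mm9 build are named in the submitters' processing notes, and the annotation and filters are not given in the sources used here. The files hold no counts. Listed starts count from 0, so 1 was added. Ratios are differences of log2(FPKM + 1) among genes averaging at least 1 FPKM, called at 1.5-fold or 2-fold, with no test.

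The members and gene lists were chosen with earlier results of these data known. All members could be named, except 1 that is counted but not reported here. Values in full were given for the 12 lowest and 6 highest ratios in lineage B117, the 4 lowest and 4 highest in lineage B140, members with listed partners, edge genes and others singled out after their values were seen. There were 9 functional groups and 18 partner lists. All expressed partners entered the medians. Those named are the first 3 of a list, with Rad21 and Prr5 added after their values were seen.

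Depth came from the spacing of low FPKM values of 761 single-transcript genes of at least 3000 bases, with 71.1% to 81.5% of 65 to 89 low values within 0.15 of a whole fragment. The unit was fitted to the same values, so this is no independent check. Fragments per member used the median GENCODE M21 transcript length, found for 60 of 61 members, and a member expressed mainly as a longer form has a wider interval than its reads warrant. Sequences and current symbols came from RefSeq GRCm38.p6. Steps were tested on simulated data. Tools were matplotlib 3.10.9, scipy 1.17.1, pandas 2.3.3 and numpy 2.4.6 under Python 3.11.15. Alternatives are given in the closing section.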

Additional observations from a re-analysis of the deposited data

Results flagged for a closer look

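Dap was the sole member that passed 1.5-fold in opposite directions in the lineages, with a log2 ratio of -2.09 for B117H over B117P and of 0.74 for B140H over B140P. The difference between the lineages was not tested, as each rests on 1 library per line. B117P, at 221 FPKM, was the highest library and B140P, at 38.8 FPKM, the lowest.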

How the results depend on the processing

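No paired analysis was possible because each comparison sets 1 library against 1, which leaves no residual degrees of freedom. A fit over both lineages with lineage as a block asks about resistance in general and was not run here. The 9 planned results and 5 on the stretch from Dab2 to Hrsp12, added after the data were seen, were recomputed under 9 alternatives. Of 125 values 12 moved and none with a fold past 1.5 changed sign. Without the minimum level, which adds genes near 0, the median log2 ratio of the members in lineage B117 was -0.10 (115 genes), their B117P against B140P median 0.032 and the median of the rest of chromosome 15 was 0.00, while 41 genes were still lower by 1.5-fold. The inner medians were then -0.51 in lineage B117 and 0.46 for B117P against B140P (80 genes). Centring, quantile normalization and TPM without small RNA genes put the lineage B140 median of the members at -0.11, -0.082 and -0.15, and that of the rest of chromosome 15 in lineage B117 at -0.019, 0.006 and -0.017. Leaving out overlapping genes left 1 member lower in B140H, and put the median over all complexes at -0.30 (15 complexes) against -0.78. The value of -0.78 lies in a gap between the differences of Nipbl, -1.26, and Pop1, -0.30. It is thus typical of no complex, and the loss of 1 complex can move it across the gap. Whether the difference of any single complex changed was not tested. The other inner results stayed near the values above, with 34 to 40 inner members lower in B117H and 31 to 37 with B117P above each other library, both by 1.5-fold. Depth limits Fbxo4 and other members near 1 FPKM.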

Other observations

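Of the 5 expressed genes of the interval left out by name, the 2 inside the stretch from Dab2 to Hrsp12 had values like its members. Zfp622, a zinc finger gene of ribosome assembly, was at 64.2 FPKM in B117P, 23.2 in B117H, 21.4 in B140P and 24.6 in B140H. Rpl30, which shares its listed span with Gm12191, was at 182, 47.7, 63.2 and 97.5 FPKM. The other 3, Rpl37, Zfp706 and Rrm2b, lie outside the stretch and had log2 ratios of -0.23, -0.23 and 0.21 in lineage B117.

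Genes of the interval with a mean FPKM from 0.1 to below 1 all lay in the inner stretch, 8 in number. Basp1, a membrane-associated growth cone protein gene, was at 1.76, 0.508, 0.00 and 0.0460 FPKM in B117P, B117H, B140P and B140H. Ctnnd2, delta-catenin, was the sole gene of the 8 higher by 1.5-fold in B117H, at 0.515 and 1.32 FPKM, and was listed at 0 in both B140 lines. Sema5a, a semaphorin gene, was at 1.68, 1.26, 0.0660 and 0.0948 FPKM.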
